A study of Arabidopsis thaliana with 3 samples.

Results

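The genes described here are the 5 pseudo-response regulators (PRRs) of the Arabidopsis circadian clock: PRR9 (AT2G46790), PRR7 (AT5G02810), PRR5 (AT5G24470), PRR3 (AT5G60100) and TOC1 (AT5G61380, also called PRR1). Every alternative splicing event listed for these 5 loci was taken, which gave 31 events at 22 exon junctions or exons, of 62849 events in 14457 nuclear genes. RNA came from first true leaves of untreated Arabidopsis thaliana plants of the ecotype Col-0, the common laboratory wild type, grown at 20 °C and 70% humidity with 16 h of light and 8 h of dark. Leaves were pooled, and 3 libraries form 1 group, so the comparisons are between introns, between genes and between libraries. The labels give neither the plant age, nor the hour of sampling, nor whether the pools are of separate plantings. P-values over libraries thus cover no more than the spread of these 3 samples, and part of it may be technical.

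The plant clock is a loop of transcriptional repressors. PRR proteins bind the promoters of the morning genes CCA1 and LHY and repress them, and they accumulate in succession through the day, with PRR9 and PRR7 early, PRR5 later and TOC1 in the evening. Each has an N-terminal pseudo-receiver domain, related to bacterial response regulators but without the phosphate-accepting residue, and a C-terminal CCT domain used in DNA binding. PRR3 is known to bind TOC1 and to protect it from degradation through the F-box protein ZTL.

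The files count, for each event and library, reads of the alternative form and other reads. The level of an event is its alternative reads in percent of both. For events between neighbouring exons this is a share of the reads of that junction, and for skipped exons and introns inside an exon it is a share of reads over the whole gene, so levels of these kinds are not comparable. The libraries held 34587113, 33141594 and 62624801 reads in replicates 1, 2 and 3 over 46303 nuclear junctions, so replicate 3 was the deepest. The rule by which intronic reads were counted is not given in these sources, and the height of a retention level rests on that rule. Every listed event had at least 1 alternative read in each library, so an unlisted event below that limit and an absent one cannot be told apart. The leaf genes RBCS1A, LHCB1.1, CA1 and RCA were listed with 20, 9, 53 and 14 events. The flower gene AG was listed with 1 event, at a mean of 15.7 reads per library, and the root gene PLT1 was not listed.

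All 5 genes share an exon of 162 nt near the start of the coding sequence, which is exon 2 of PRR9, PRR5 and TOC1 and exon 3 of PRR7 and PRR3. The intron behind it begins at the same aligned codon in all of them, and the events listed at this intron differed between PRR9 and PRR7. The donor of that intron is shown for each gene, 5′ to 3′, with the first 2 bases of the intron in capitals (RefSeq sequence, build TAIR10.1). The positions are chr2:19233307-19233346 on the plus strand for PRR9, chr5:640865-640904 on the minus strand for PRR7, chr5:8357880-8357919 on the minus strand for PRR5, chr5:24199961-24200000 on the minus strand for PRR3 and chr5:24676136-24676175 on the plus strand for TOC1.
PRR9 intron 2: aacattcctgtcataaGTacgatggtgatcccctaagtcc
PRR7 intron 3: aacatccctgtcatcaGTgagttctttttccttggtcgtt
PRR5 intron 2: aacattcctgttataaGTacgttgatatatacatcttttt
PRR3 intron 3: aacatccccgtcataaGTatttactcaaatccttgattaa
TOC1 intron 2: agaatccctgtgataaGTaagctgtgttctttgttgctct
In PRR9 the main event here was a shifted donor, at 35.3% ± 2.15 of junction reads (SD, n = 3). In PRR7 it was retention of the whole intron, at 55.8% ± 2.77 (SD, n = 3). No event was listed at this intron of PRR5, PRR3 or TOC1, which were thinly read. In replicates 1, 2 and 3, PRR5 had 34, 137 and 93 reads at its only listed junction and PRR3 had 1, 8 and 9. TOC1 had 59, 61 and 70 reads at its junction 1-2. An event missing from the list is thus no sign of a difference from PRR9 or PRR7. The introns are 97 nt long in PRR9, 133 nt in PRR7, 79 nt in PRR5, 96 nt in PRR3 and 136 nt in TOC1.

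The genes were covered unequally, and the best covered ones held most of the listed events. Junction reads are given in rpm, scaled to 1000000 listed junction reads per library, as the median over the listed junctions of the gene, which does not depend on gene length. PRR7 had 23.7, 24.8 and 20.2 rpm in replicates 1, 2 and 3 and 18 listed events. PRR9 had 14.3, 9.20 and 13.3 rpm and 7 events. The other genes lay far lower. TOC1 had 1.32, 1.51 and 0.958 rpm and 3 events. PRR5 had 0.983, 4.13 and 1.49 rpm at its only listed junction, with 1 event. PRR3 had 0.0289, 0.241 and 0.144 rpm at its only listed junction, from 1, 8 and 9 reads, and 2 events. PRR7 was above PRR9 in every library and both were above the other 3 genes, whereas the ranges of PRR5 and TOC1 overlapped. Since only junctions with an event are listed, the values of PRR5 and PRR3 each rest on a single junction.

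**Figure D1:**
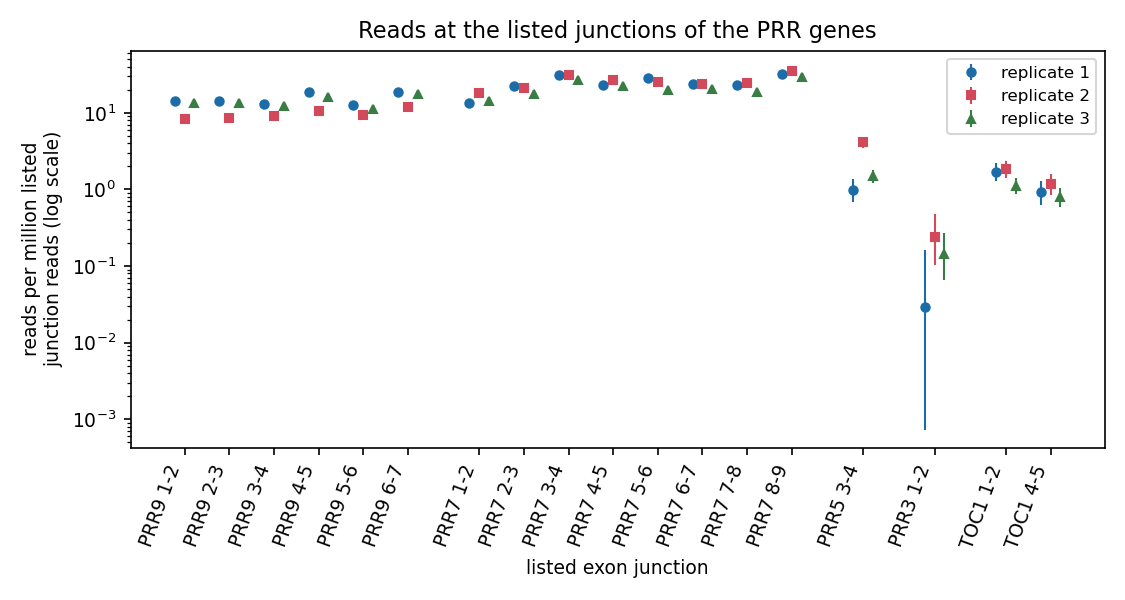
Reads in rpm, scaled to 1000000 listed junction reads (log scale) at each listed junction of the 5 genes, by library, with bars giving the exact Poisson 95% interval, which covers counting error only. Replicate 2 is lowest at all 6 junctions of PRR9 and highest at the PRR5 junction, where it has 4.13 rpm.

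The libraries did not move together at these genes. PRR5 was 4.21-fold higher in replicate 2 than in replicate 1, from 137 and 34 reads. PRR9, in contrast, was lowest in replicate 2 at all 6 of its junctions, and its highest library had 1.55 times the lowest. Among the 4 PRR genes with at least 30 reads at the median junction in each library, 1 (PRR5) differed 2-fold or more between libraries, against 5.5% of 11793 nuclear genes with that depth. Of these, 99.5% had a smaller ratio than PRR5. In bulk leaf, fewer cells that express a gene and less RNA per cell cannot be told apart.

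Retained introns made up 15 of the 31 events. There were also 6 shifted acceptors, 4 shifted donors, 2 exons inside an intron, 3 introns inside an exon and 1 skipped exon. Of the 31 events 29 lay in the coding sequence and 2 in the 5′ untranslated region. A form of an annotated transcript was matched by 6 events. With the event placed alone in the chosen transcript, 24 events put the first stop codon more than 50 nt before the last junction, a position known from targets of nonsense-mediated decay. Decay was not measured here, and the share of all nuclear events with such a stop was not computed. The 15 retained introns had a median level of 5.03%, and 6 of them reached 10%, where 28.7% of 43194 retained introns of all nuclear genes did. The median over all nuclear genes was 4.19%. Among introns with at least 10 retained reads in each library, the median was 15.0% over 7 introns of PRR genes and 11.6% over 13142 introns of all genes.

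**Figure D2:**
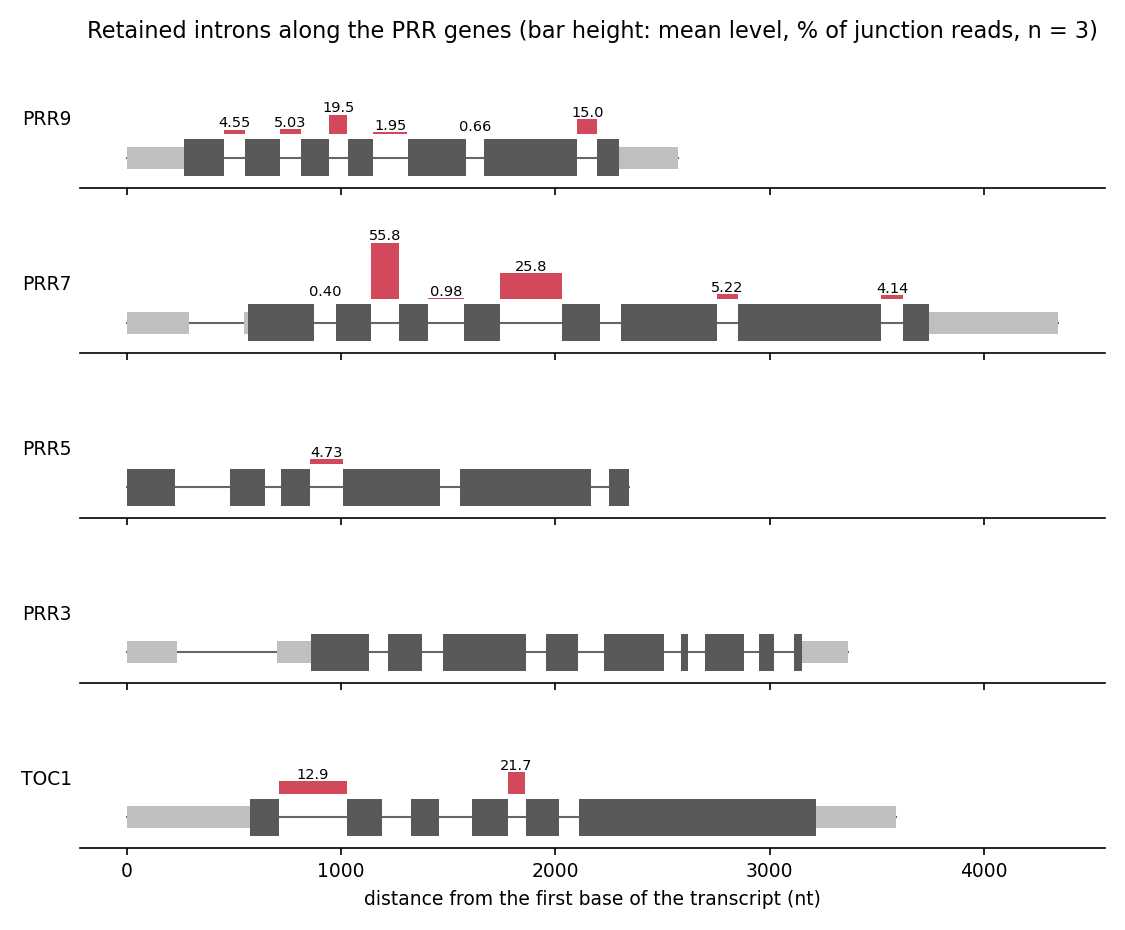
Exons (dark: coding, light: untranslated) and introns (lines) of the chosen transcript of each gene, against the distance from its first base in nt, with red bars whose height is the mean retention level in % of junction reads over 3 libraries. The tallest bars stand over intron 3 (55.8%) and intron 5 (25.8%) of PRR7, and intron 2 of PRR7, beside them, is at 0.40%.

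PRR9, a repressor of the morning, had retained introns at every one of its 6 introns and a shifted donor, all in the coding sequence. The shifted donor of intron 2 was the most used alternative form. It carried 175 of 491, 94 of 285 and 309 of 830 junction reads in replicates 1, 2 and 3, or 35.6%, 33.0% and 37.2%. No difference between the 3 levels passed the threshold (chi-square test of homogeneity over libraries, Benjamini-Hochberg adjusted p = 0.711). The donor is shown at chr2:19233311-19233354, plus strand, with the 8 bases that the shift adds to exon 2 in capitals.
PRR9 shifted donor: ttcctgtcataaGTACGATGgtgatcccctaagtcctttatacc
The bases that follow begin with gt again. An addition of 8 nt breaks the frame, and the first stop then falls after 119 residues of a protein that otherwise has 468. This form is annotated in 2 of the other transcripts, AT2G46790.2 and AT2G46790.5. Retention of the same intron, chr2:19233323-19233419, stood at 5.09%, 4.21% and 5.78%. Both forms together took 40.3% ± 2.93 of the reads of this junction (SD, n = 3).

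Introns 3 and 6 were the most retained introns of PRR9, and both retentions are annotated. Intron 3 (chr2:19233551-19233637, plus strand, 87 nt) was retained in 90 of 453, 47 of 303 and 178 of 772 reads, or 19.9%, 15.5% and 23.1%. Intron 6 (chr2:19234710-19234802, plus strand, 93 nt) was retained in 109 of 654, 44 of 391 and 185 of 1088 reads, or 16.7%, 11.3% and 17.0%. Both introns are printed with the first in-frame stop codon in capitals, because the stops fall at different places of the protein.
PRR9 intron 3: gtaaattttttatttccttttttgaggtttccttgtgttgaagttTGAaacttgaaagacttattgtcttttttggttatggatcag
PRR9 intron 6: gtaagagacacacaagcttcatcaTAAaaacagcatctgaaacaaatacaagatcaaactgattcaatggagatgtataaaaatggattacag
With intron 3 retained, the reading frame keeps 160 residues of PRR9 and ends after 175. With intron 6 retained, it keeps 438 residues and ends after 444, and this stop lies behind the last junction. Replicate 2 was lowest at both introns, but neither difference between libraries passed the test (adjusted p = 0.129 at intron 3 and 0.137 at intron 6). Of introns with at least 10 retained reads in each library, 65.0% had a lower level than intron 3 and 57.5% a lower level than intron 6.

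The remaining introns of PRR9 were retained less. Intron 1 was retained in 37 of 498, 6 of 276 and 34 of 841 reads, or 7.43%, 2.17% and 4.04%, and these levels differed (adjusted p = 0.0222), with replicate 1 highest. This call was lost when replicate 1 or replicate 2 was left out. Intron 4 stood at 1.95% ± 0.574 and intron 5 at 0.657% ± 0.609 (SD, n = 3). The reads behind intron 5 were 6, 1 and 2.

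PRR7, which acts beside PRR9 in the morning, held 18 of the 31 events and the most retained intron of the 5 genes. Intron 3 (chr5:640756-640888, minus strand, 133 nt) was retained in 631 of 1076, 549 of 1034 and 930 of 1668 reads, or 58.6%, 53.1% and 55.8% in replicates 1, 2 and 3. The retained form was thus above the sum of all other reads in each library. This is a share of reads and not of transcripts, since the junction held more reads than its neighbours. Junction 2-3 had 784, 705 and 1109 reads and junction 4-5 had 792, 876 and 1420. The libraries did not differ past the threshold (adjusted p = 0.188). Of introns with at least 10 retained reads in each library, 87.2% had a lower level. The intron is shown with its first in-frame stop codon in capitals.
PRR7 intron 3: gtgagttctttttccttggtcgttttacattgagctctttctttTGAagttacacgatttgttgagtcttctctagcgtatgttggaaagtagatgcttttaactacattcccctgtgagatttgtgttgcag
The stop falls after 172 residues, of which 157 are shared with the 727 residues of PRR7, and the retention is annotated in transcript AT5G02810.2.

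Intron 5 of PRR7 (chr5:639994-640285, minus strand, 292 nt) carried 7 listed forms, which made it the junction with the most forms among the 5 genes. Its sequence is printed to show the sites used, with the splice dinucleotides of the whole intron, of an inner acceptor and of 2 inner donors in capitals.
PRR7 intron 5: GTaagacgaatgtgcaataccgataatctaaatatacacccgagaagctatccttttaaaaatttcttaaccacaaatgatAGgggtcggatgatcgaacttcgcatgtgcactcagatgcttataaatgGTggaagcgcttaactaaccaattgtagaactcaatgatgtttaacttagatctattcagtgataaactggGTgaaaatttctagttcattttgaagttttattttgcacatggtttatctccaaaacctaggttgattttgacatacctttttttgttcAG
Full retention took 288 of 989, 185 of 846 and 330 of 1251 reads, or 29.1%, 21.9% and 26.4%. The levels differed between libraries (adjusted p = 0.0243), with replicate 2 lowest, a call lost without replicate 1 or without replicate 2. Of introns with at least 10 retained reads in each library, 72.7% had a lower level. With this intron retained, the frame keeps 257 residues and ends after 304.

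The other forms of intron 5 used the inner sites. The inner acceptor, which removes 83 nt (chr5:640203-640285) and leaves 209 nt in the transcript, took 10.3%, 8.51% and 10.8% of the junction reads, from 102, 72 and 135 reads. An inner donor that leaves 201 nt and removes the last 91 nt (chr5:639994-640084) took 2.33%, 3.90% and 2.24%, from 23, 33 and 28 reads. An inner donor that leaves 130 nt and removes 162 nt took 0.632% ± 0.151 (SD, n = 3). The inner sites were also read in combination. An exon of 118 nt (chr5:640085-640202), bounded by the inner acceptor and the donor of the 201 nt form, had 5, 4 and 6 reads, and an exon of 47 nt with the other donor had 3, 3 and 4 reads. A further acceptor that leaves 213 nt had 4, 3 and 2 reads. The stretch it removes ends in TG and not in AG, and whether reads were misplaced there was not tested. All 7 forms together took 43.5%, 36.1% and 41.2% of the reads of this junction.

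Intron 6 of PRR7 had an acceptor shift of 3 nt that keeps the frame. It carried 70 of 832, 78 of 796 and 85 of 1276 reads, or 8.41%, 9.80% and 6.66% (adjusted p = 0.177). The acceptor is shown at chr5:639706-639740, minus strand, with the 3 bases removed from exon 7 in capitals.
PRR7 acceptor of intron 6: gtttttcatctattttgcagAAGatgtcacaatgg
Both alternatives end in ag, and the predicted protein has 726 residues in place of 727.

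The later introns of PRR7 were retained at lower levels. Intron 7 (chr5:639176-639272, minus strand) was retained in 61 of 806, 25 of 800 and 58 of 1169 reads, or 7.57%, 3.12% and 4.96%. These levels differed (adjusted p = 0.00581), with replicate 1 highest and replicate 2 lowest, and the call was lost when either was left out. Intron 8 (chr5:638403-638505, minus strand) stood at 3.76%, 4.09% and 4.58% (adjusted p = 0.79). The other junction events of PRR7, retention of introns 2 and 4 and small acceptor shifts at introns 1 and 4, averaged between 0.303% and 0.980%.

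Some rare forms of PRR7 were called different between libraries from few reads. Exon 3 lost an inner stretch of 87 nt in 25, 7 and 12 reads, or 0.171%, 0.0449% and 0.0499% of gene-wide reads (adjusted p = 0.00128), with replicate 1 highest. This stretch, chr5:640929-641015, begins with GT and ends with AG, and its loss keeps the frame with 698 residues. Exon 4 (134 nt) was skipped in 2, 17 and 15 reads, or 0.0137%, 0.109% and 0.0624% of gene-wide reads (adjusted p = 0.044), with replicate 1 lowest. The call for exon 3 was lost without replicate 1, and that for exon 4 without replicate 1 or replicate 2. Over skipping reads and reads of the flanking junctions the skip stood at 1.38%. An inner stretch of 82 nt of exon 8 was missing in 15, 11 and 26 reads, or 0.0938% ± 0.0203 of gene-wide reads (SD, n = 3).

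**Figure D3:**
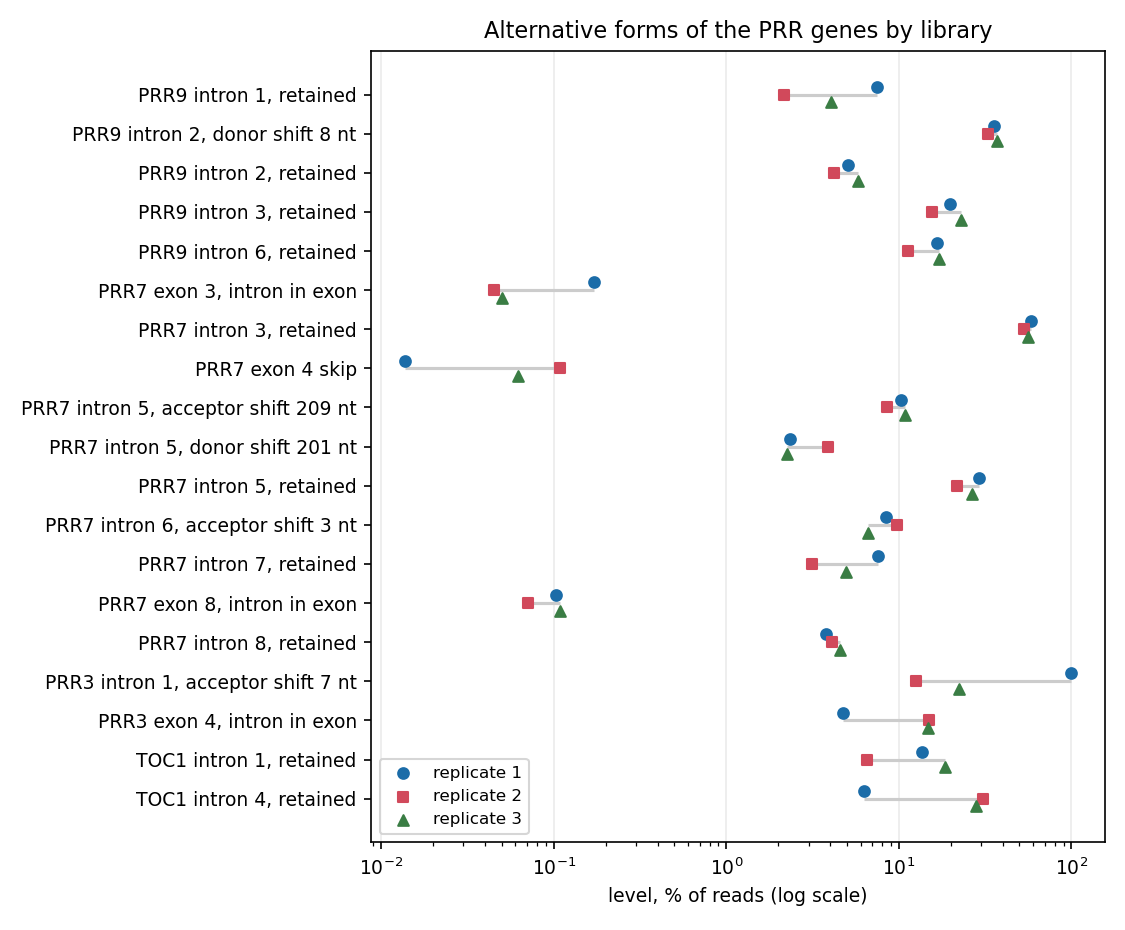
Level in % of reads (log scale) of the 19 PRR events with 10 or more alternative reads per library, a mean level of 10% or more, or a called difference between libraries, with 1 point per library and grey lines over the range. Retention of PRR7 intron 3 and the PRR9 donor have narrow ranges. Wide ones are seen in PRR3 and TOC1, and also at the PRR7 exon 4 skip (0.0137% to 0.109%) and PRR9 intron 1 (2.17% to 7.43%). Skips and introns inside exons are shares of gene-wide reads, the other events of junction reads.

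PRR5, a repressor of the afternoon, had a single listed event. Its intron 3 (chr5:8357539-8357693, minus strand, 155 nt) was retained in 2 of 34, 4 of 137 and 5 of 93 reads, or 5.88%, 2.92% and 5.38%. The Wilson 95% intervals, which cover counting error only, overlapped widely, and the levels did not differ past the threshold (adjusted p = 0.807). The reading frame would end after 186 of 558 residues.

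PRR3, the partner of TOC1, was thinly read and both of its events are annotated forms. The removal of 81 nt from inside exon 4 (chr5:24199674-24199754, minus strand) had 1, 11 and 9 reads of 21, 74 and 61 gene-wide reads, or 4.76%, 14.9% and 14.8%. Its Wilson intervals ran from 0.846% to 22.7%, from 8.51% to 24.7% and from 7.96% to 25.7%, so replicate 1 was not set apart at this depth. The stretch is shown with its first and last 2 bases in capitals.
PRR3 intron inside exon 4: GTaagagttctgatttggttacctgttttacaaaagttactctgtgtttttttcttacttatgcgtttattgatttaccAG
The chosen transcript of PRR3 keeps it, and 6 other annotated transcripts splice it out, which keeps the frame with 495 in place of 522 residues. The other event, an acceptor shift of 7 nt at intron 1 in the 5′ untranslated region, had 1, 1 and 2 reads of 1, 8 and 9, so its level could not be read.

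TOC1, the evening repressor, had retained introns 1 and 4 and a donor shift. Intron 1 (chr5:24675673-24675989, plus strand, 317 nt) was retained in 8 of 59, 4 of 61 and 13 of 70 reads, or 13.6%, 6.56% and 18.6% (adjusted p = 0.384). Intron 4 (chr5:24676740-24676823, plus strand, 84 nt) was retained in 2 of 32, 12 of 39 and 14 of 50 reads, or 6.25%, 30.8% and 28.0%. Its intervals ran from 1.73% to 20.1%, from 18.6% to 46.4% and from 17.5% to 41.7%, and the lower level of replicate 1 did not pass the test (adjusted p = 0.162). Intron 4 is shown with its first in-frame stop codon in capitals.
TOC1 intron 4: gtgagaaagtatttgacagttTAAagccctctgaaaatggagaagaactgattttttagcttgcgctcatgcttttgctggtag
The stop falls after 206 of 618 residues. The donor shift of 13 nt at intron 1 had 2, 1 and 6 reads, or 4.53% ± 3.60 (SD, n = 3).

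Retention was uneven along PRR7 and PRR9. Consecutive listed introns were compared within each library on the log2 odds of retention, the log2 of retained over other reads with 0.5 added to each, as the later minus the earlier intron, where both had at least 10 retained reads over the libraries. The difference was fitted with limma over 20538 such pairs of all nuclear genes. It passed an adjusted p of 0.05 in 6 of 9 pairs of PRR genes, against 48.6% of all pairs. With no read minimum 8 of 11 passed, against 14674 of all 29339 pairs. Consecutive pairs of a gene share an intron, so these calls are not separate results. In PRR7, intron 3 was above intron 2 by 8.20 (SD 0.50, limma adjusted p = 1.36e-05), intron 4 differed from intron 3 by -7.03 (SD 0.82, adjusted p = 4.52e-05), and intron 5 above intron 4 by 5.15 (SD 0.88, adjusted p = 0.000193). These steps were large among all pairs, since 98.2%, 97.5% and 95.4% of them had a smaller absolute difference. Intron 7 of PRR7 then differed from intron 5 by -2.73 (adjusted p = 0.00145).

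In PRR9 the middle introns also differed. Intron 3 was above intron 2 by 2.16 (SD 0.13, limma adjusted p = 0.00317), and intron 4 differed from intron 3 by -3.56 (SD 0.32, adjusted p = 0.000434). Intron 5, with 6, 1 and 2 retained reads, entered only with no read minimum. There it differed from intron 4 by -1.67 (SD 1.42, limma adjusted p = 0.0429), and intron 6 was above it by 4.77 (SD 1.05, adjusted p = 0.000213). The 3 pairs that did not pass were PRR9 introns 2 and 1 (0.30, 95% interval -0.74 to 1.34), PRR7 introns 8 and 7 (-0.27, interval -1.29 to 0.76) and TOC1 introns 4 and 1 (0.76, interval -0.80 to 2.33). Leaving out replicate 1 gave 1.65 for the TOC1 pair (limma adjusted p = 0.0473), and leaving out replicate 2 gave -0.13.

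The series title names divergence between duplicated genes, and homologous introns of the PRR family were compared in the same way. Introns of equal phase at a shared codon of the protein alignment were taken as homologous. Of all pairs of these proteins, PRR9 with PRR5 (43.7% identity of aligned residues) and PRR7 with PRR3 (51.4%) were reciprocal best hits, but neither pair had a homologous intron listed as retained in both genes. The pairs compared therefore join other members of the family, and they were added with the values known. With at least 10 retained reads over the libraries at each intron, 6 of 6 pairs passed in limma, against 47.6% of 3181 pairs in the fit. Apart from the PRR pairs, the fit holds reciprocal best hits only, so its share is of closer gene pairs. The pairs among PRR9 intron 1, PRR7 intron 2 and TOC1 intron 1 share their introns and are not separate results. Without replicate 3, 3 of the 6 passed, against 27.3% of the fit. With the minimum of 10 reads set per library 2 of 2 passed, against 58.4% of the fit.

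The first coding intron that all 5 genes share was retained at 4.55% ± 2.66 in PRR9, 0.397% ± 0.208 in PRR7 and 12.9% ± 6.03 in TOC1 (SD, n = 3 each). PRR9 was above PRR7 by 3.35 in log2 odds (95% interval 2.38 to 4.31, limma adjusted p = 0.00395), where PRR7 had 10 retained reads in all. PRR7 differed from TOC1 by -5.07 (interval -6.35 to -3.79, adjusted p = 0.00289). PRR9 differed from TOC1 by -1.73 (interval -2.81 to -0.64, adjusted p = 0.0272), which no longer passed without replicate 2 (adjusted p = 0.086) or without replicate 3 (0.134).

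At the intron after the exon of 162 nt, full retention was lower in PRR9 than in PRR7, with a difference of -4.56 in log2 odds (95% interval -5.39 to -3.72, limma adjusted p = 0.00186), with an SD of 0.19 over libraries. All listed forms together took 40.3% ± 2.93 of the reads of this junction in PRR9 and 55.8% ± 2.77 in PRR7 (SD, n = 3 each). The last intron was retained more in PRR9 (intron 6, 15.0% ± 3.23) than in PRR7 (intron 8, 4.14% ± 0.413), by 2.00 in log2 odds (adjusted p = 0.0111). This call was lost without replicate 3 (adjusted p = 0.064). Intron 4 of PRR7 differed from intron 3 of PRR5 by -2.49 (adjusted p = 0.0195), also lost without replicate 3 (0.0572).

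**Figure D4:**
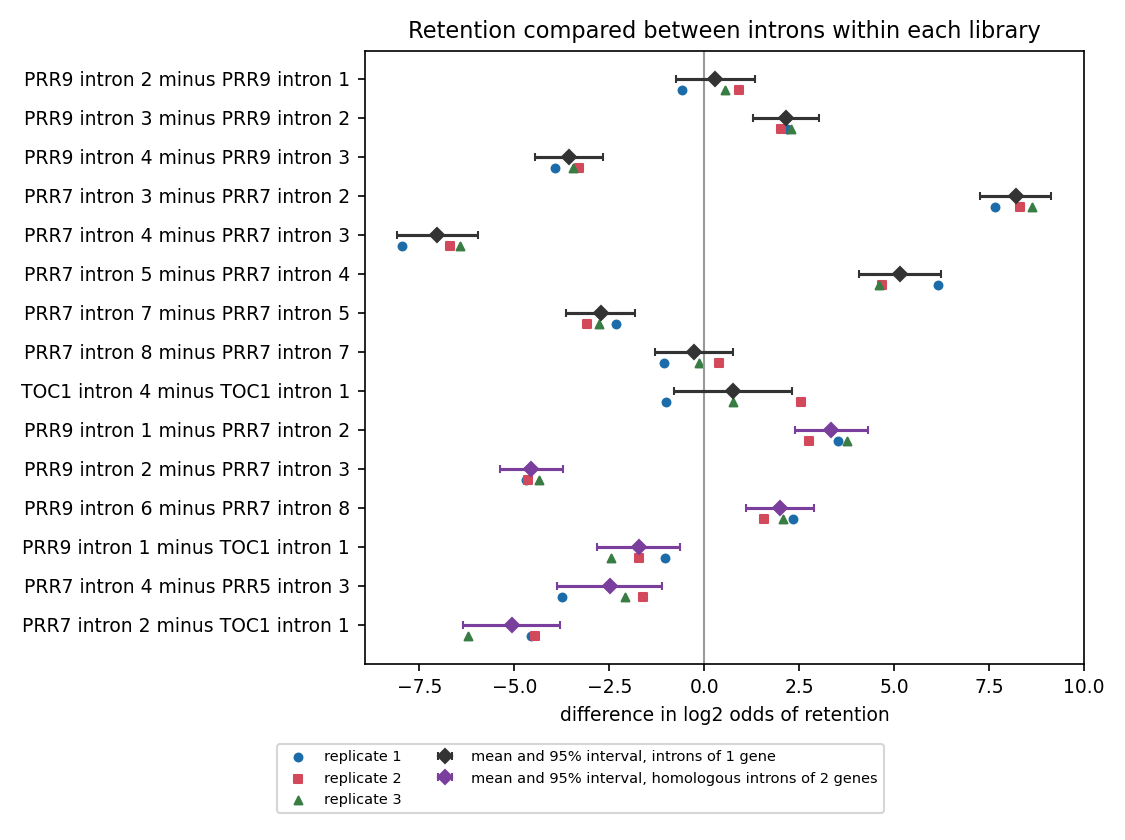
Difference in log2 odds of retention between 2 introns, taken within each library (points) with the mean and 95% interval from limma (diamonds and bars), for consecutive introns of 1 gene (black) and homologous introns of 2 genes (purple). The PRR7 pairs of introns 3 and 2 (8.20) and 4 and 3 (-7.03) lie farthest from 0.

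Levels of 5 of the 31 events (16.1%) differed between libraries by more than counting error, against 10.1% of all nuclear events. Of the 12 events that had 10 or more alternative reads per library 2 did, against 19.6% of nuclear events with that depth. Without replicate 1 the chi-square test called 0 of the 31 (7 at an unadjusted p under 0.05), against 3.25% of all events. Without replicate 2 it called 1, against 5.88%, and without replicate 3 it called 5, against 5.97%. The chi-square test takes reads as independent and sets no replicate error against the difference. Of the 15 retained introns, 9 had their lowest level in replicate 2, 4 in replicate 1 and 2 in replicate 3. Over all nuclear genes 39.7% of retained introns were lowest in replicate 2, and so were 54 of 73 retained introns of the other clock genes described further on. Replicates 1 and 2 had like depth, 34587113 and 33141594 reads, and whether depth has a part in these counts was not tested.

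Other clock genes were read from a list of 29, of which 23 were in the table with 139 events. Of these events 25 (18%) differed between libraries, and of 73 retained introns 22 reached 10%, with a median of 4.30%. The most retained with at least 10 retained reads in each library were intron 2 of ZTL, at 100% in each library, intron 12 of TIC, at 99.3% ± 0.262, intron 1 of LUX, at 89.1% ± 4.93, intron 2 of ELF3, at 67.3% ± 9.10, and intron 1 of RVE8, at 52.0% ± 6.67 (SD, n = 3 each). At intron 2 of ZTL no other read was counted. Whether the numbered transcripts of ZTL and TIC are those expressed in these leaves was not tested, so these 2 levels may not describe retention. ZTL is the F-box protein that targets TOC1 and PRR5, LUX and ELF3 belong to the evening complex, and RVE8 is an activator of PRR5 and TOC1.

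Differences between libraries of 10 points or more were called at 6 of the 34 introns of these clock genes with at least 10 retained reads in each library, and replicate 2 was lowest at each. Over all nuclear genes 8.53% of 13142 introns at that depth met this rule. Of these 1121 introns, 577 were lowest in replicate 2. CCA1, a morning gene that PRR proteins repress, had its intron 4 retained at 65.9%, 34.5% and 52.1% (adjusted p = 3.15e-41). Intron 2 of ELF3 stood at 76.9%, 58.7% and 66.3% (adjusted p = 0.00423), and intron 8 of RVE4 at 17.3%, 6.10% and 10.6% (adjusted p = 2.74e-13). The others were intron 7 of RVE8, intron 1 of SKIP and intron 5 of XCT. SKIP is known as a splicing factor needed for correct splicing of PRR7 and PRR9. At the same depth 7 introns of PRR genes were tested, and the widest range among them was 7.55 points, at PRR9 intron 3.

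By the largest difference in log2 odds over the 3 libraries, the clock introns nearest to PRR9 intron 3 were RVE8 intron 8 (0.31), ZTL intron 1 (0.48) and RVE1 intron 5 (0.56). Nearest to PRR7 intron 3 were RVE8 intron 1 (0.43), then CCA1 intron 4 and ELF3 intron 2, the last at 1.22. These values describe likeness over 3 libraries and carry no test.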

How the data were processed

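Per the submitters' processing notes, CASAVA 1.8.2, GSNAP and the build TAIR10 were used. The event caller, the strandedness and the counting of intronic reads are not given in these sources. The values deposited by the authors are raw, unnormalized read counts, of alternative and of other reads per event in 3 libraries, in 6 columns; 0 columns of per-sample values were left out. Where a junction has several events (9084 junctions), all have 1 shared total per library. No annotated gene overlaps the 5 loci.

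The 5 genes, all their events and the lists of other genes were chosen with earlier results of these data known. The class codes have no definition in the labels, and their meaning was taken from coordinates: IR as retained intron, ALTA and ALTD as shifted acceptor and donor, CREX as an exon inside an intron, CRIN as an intron inside an exon, SKIP as a skipped exon. Intron coordinates and predicted proteins came from the annotated RefSeq transcript (TAIR10.1) with introns nearest to the listed sites; 97.4% of 17211 shifted sites abut its numbered intron. Positions are 1-based.

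Levels were tested for homogeneity over libraries by a chi-square test per event (scipy 1.17.1, Benjamini-Hochberg over 62849 events). Log2 odds of 2 introns were compared within libraries with limma 3.58.1, two-sided, adjusted over all pairs of the fit. Homologous introns were found by blast 2.17.0 and by protein alignment (biopython 1.88, gap opening 11, extension 1). The homologous test was planned for reciprocal best-hit pairs; of 7 homologous introns of the PRR family retained in both genes 0 lay in such a pair, so the family's pairs were added after the data were seen. The scripts were tested on simulated data.

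Events are given by library where they have at least 10 alternative reads in each library, a mean level of 10% or more, or a called difference. Other clock introns are named for the 5 highest levels, or for a called difference of at least 10 points, both with at least 10 retained reads in each library. Alternatives were each library left out, pooled reads, other totals, read minimums, pseudocount 1, a G-test, adjustment within classes or by Holm, a variance trend in limma, and other scalings of junction reads.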

Additional observations from a re-analysis of the deposited data

How the results depend on the processing

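Levels moved by less than 1 SD between replicates in 129 recalculations and by more in 9. Most of the 129 left out 1 library. A mean over 3 libraries cannot move by 1 SD of these libraries in that way, so the 129 are no measure of stability. Where the other listed forms were left out of a junction's total, PRR7 intron 5 retention came to 30.1%, its inner acceptor to 14.2%, its donor that leaves 201 nt to 4.46%, its donor that leaves 130 nt to 1.05%, its acceptor that leaves 213 nt to 0.511%, its inner exons of 118 and 47 nt to 0.810% and 0.542%, and PRR9 intron 2 retention to 7.80%, by construction of the smaller total. The median level of the retained introns was between 4.33% and 5.74% with a library left out. Levels called different between libraries, 5 of 31, numbered 0 without replicate 1, 1 without replicate 2 (the inner stretch of PRR7 exon 3) and 5 without replicate 3, with 7, 7 and 9 events at an unadjusted p under 0.05 in the chi-square test. With 10 or more alternative reads per library 2 of 12 were called (23.7% of all such events), by Holm adjustment 0 (11 at an unadjusted p under 0.05; 1.97% of all events), and by the G-test and by adjustment within classes the same 5. Neighbouring introns differed in 6 to 7 of 9 pairs with a library left out (34.7% to 46.6% of all pairs), in 8 of 11 with no read minimum (14674 of 29339), and in 2 of 3 with at least 10 retained reads in each library (63.1%). Homologous pairs of PRR genes passed in 3 to 6 of 6, the 3 without replicate 3 (27.3% of the fit, 32.0% and 37.4% with replicate 2 or 1 left out). With at least 10 retained reads in each library 2 of 2 passed (58.4% of the fit). Apart from the PRR pairs, that fit holds reciprocal best hits only. Directions turned only among pairs that had not passed: PRR7 introns 8 and 7 ranged from -0.59 to 0.13, PRR9 introns 2 and 1 from -0.018 to 0.73, and TOC1 introns 4 and 1 from -0.13 to 1.65. The cause was not tested. At the depth of TOC1 even the range of its intron 4, from 6.25% to 30.8%, did not pass the test. No paired analysis was possible because there is only 1 group, so no replicate numbers pair samples across groups; the introns themselves were compared within each library.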

Other observations

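Other clock genes also differed in junction reads between libraries, and they are given here with PRR5, having been chosen after their values were seen. The evening complex gene LUX had 0.983, 4.04 and 1.72 rpm of listed junction reads in replicates 1, 2 and 3, and was highest in replicate 2, as PRR5 was. ELF3, which belongs to the same complex, had 6.997, 6.216 and 5.206 rpm and was highest in replicate 1. The morning gene LHY had 4.90, 2.10 and 2.99 rpm, and RVE8 had 7.60, 3.56 and 5.30, both lowest in replicate 2, as PRR9 was. Other genes of these families went the other way. RVE4 had 21.7, 27.1 and 18.7 rpm, RVE1 had 3.43, 4.16 and 2.80, and RVE7 had 13.1, 15.7 and 13.7. All of these were highest in replicate 2. The median of PRR7 was also highest there, at 24.8 rpm against 23.7 in replicate 1, but not every junction of PRR7 was. Junction 5-6 had 28.6 rpm in replicate 1 and 25.5 in replicate 2. Of 11793 nuclear genes with at least 30 reads at the median junction in each library, 5.5% differed 2-fold or more. CCA1 had 24.7, 22.2 and 24.4 rpm, with a highest library 1.11 times the lowest. The hour at which each pool was taken is not given in the labels, and its part in these values was not tested.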
